A study of Mus musculus with 6 samples.

Results

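The Vmn1r genes encode the type 1 vomeronasal receptors, and 208 protein-coding genes on chromosomes 1 to 19 carried a symbol starting with Vmn1r in the GENCODE vM21 annotation of mm10, out of 20807 protein-coding genes in all. They made up 207 symbols, because Vmn1r216 was annotated under 2 overlapping gene identifiers. Every protein-coding gene with the prefix was taken without a filter on measured values, but the family was chosen with earlier results of these data known. DPPA4 occupancy was measured by CUT&RUN, in which a nuclease is tethered by an antibody to sites of the bound protein and the released DNA is sequenced, in 72 h dTAG-treated mouse embryonic stem cells (mESCs) of a BL6/129 hybrid background. The cells were the line EHMT2-dTAG-mcherry-mervl-gfp, in which a degradation tag removes the histone methyltransferase EHMT2 and the promoter of the retroviral element MERVL drives GFP, derived from cells plated sparsely to give clones. All samples shared this line, the FBS/LIF medium and the depletion of EHMT2, so no library of EHMT2-containing cells entered. Live cells were sorted into GFP-negative cells, which stand for mESCs, and GFP-positive cells, which stand for 2-cell-like cells (2CLCs), a minor state of the culture that reactivates MERVL and genes of the early embryo. DPPA4 was profiled in 2 libraries per sorted population, and 1 IgG library came from GFP-negative and 1 from bulk cells. The 2 DPPA4 libraries of each group were pooled by the authors into 1 peak list, so no value below has a replicate spread and none was tested between the groups. On chromosomes 1 to 19 there were 81913 peaks for GFP-negative and 53110 for GFP-positive cells. Neither list carries read counts, so the depth behind it is unknown, and a difference in depth between the lists and a difference in occupancy cannot be told apart. The IgG libraries were not used here.

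Type 1 vomeronasal receptors are G protein-coupled receptors of sensory neurons in the vomeronasal organ, where they detect pheromones and other chemical signals. Each neuron is thought to express a single receptor gene, signalling runs through the G protein subunit encoded by Gnai2 and the channel encoded by Trpc2, and the family lies in tandem arrays that arose by repeated duplication. DPPA4 is a DNA-binding protein of pluripotent cells that acts with its partner DPPA2 and is known for promoting genes of the 2-cell-like state. RNA was not measured in these libraries, so whether a Vmn1r gene was transcribed is not known from them.

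Few Vmn1r genes lay near a DPPA4 peak in either list. A GFP-negative peak lay within 10 kb of 36 of 208 members (17.3%), against a background of 83.1% of all protein-coding genes. For the GFP-positive list the count was 51 of 208 members (24.5%), against 78.4%. Peaks of both lists lay near 30 members (14.4%; background 75.9%), and 151 members (72.6%) had peaks of neither list, against a background of 14.5%. The members with a peak of the GFP-positive list alone numbered 21 of 208 (background 2.45%), and those with a peak of the GFP-negative list alone numbered 6 (2.88%; background 7.16%). The balance of the lists was thus opposite to that over all genes. More GFP-positive than GFP-negative peaks lay near 26 members (12.5%; background 15.2%), and the reverse held for 6 members (2.88%), although 51.2% of all protein-coding genes had more GFP-negative peaks.

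The distance to the closest peak gave the same ordering without a window. The median member was 35.6 kb from its closest GFP-negative peak and 26.3 kb from its closest GFP-positive peak, whereas the median over all protein-coding genes was 0 kb in both lists, a peak inside the gene. A peak of the GFP-negative list overlapped the body of 6 of 208 members, and a GFP-positive peak also overlapped 6. Among all 20807 protein-coding genes these counts were 15841 and 14510. More than 50 kb separated 76 members from any GFP-negative peak and 62 members from any GFP-positive peak, against 1480 and 1792 of all protein-coding genes. The emptiest stretch left a member 339.1 kb from the next GFP-negative peak and 284.2 kb from the next GFP-positive one.

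**Figure D1:**
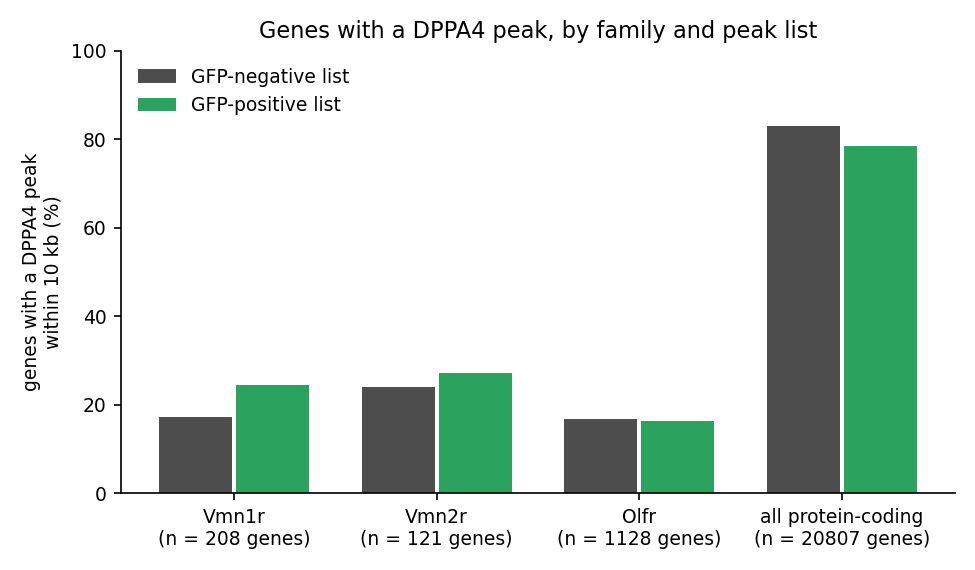
Percent of genes with at least 1 DPPA4 peak within 10 kb (y axis) for the Vmn1r, Vmn2r and Olfr families and all protein-coding genes of chromosomes 1 to 19 (x axis), in the GFP-negative list (grey) and the GFP-positive list (green), with no error bars because each list is a single pool. The 3 receptor families sit between 16.3% and 27.3%, and all genes at 83.1% and 78.4%.

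The low share was common to clustered chemosensory receptor families. Vmn2r genes, the type 2 vomeronasal receptors, had a GFP-negative peak in 29 of 121 cases and a GFP-positive peak in 33. Among the 1128 Olfr genes, which encode odorant receptors, the counts were 188 and 184. The 15 Taar genes, receptors for trace amines, had 5 and 0. The balance of the lists varied between the families. GFP-positive peaks alone lay near 8 Vmn2r genes (6.61%) and 64 Olfr genes (5.67%), against a background of 2.45%. GFP-negative peaks alone lay near 4 (3.31%) and 68 (6.03%), against 7.16%. Counting each peak once, 37 GFP-negative and 66 GFP-positive peaks lay within 10 kb of a Vmn1r gene, a GFP-positive share of 64.1% (95% Wilson interval 54.5 to 72.7). That share was 55.0% (44.1 to 65.4) near Vmn2r genes, 47.1% (42.1 to 52.1) near Olfr genes and 39.3% (39.1 to 39.6) over chromosomes 1 to 19. Without the members from Vmn1r85 to Vmn1r89, left out after their values were seen, the Vmn1r share was 60.2% (53 of 88 peaks). The Wilson intervals cover counting error only, since peaks of 1 pool are not replicates, and a difference between the families was not tested.

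Peaks near Vmn1r genes were sparse per length as well as per gene. The windows of 10 kb on both sides of the members merged into 153 stretches of 5.26 Mb. They held 7.03 GFP-negative and 12.5 GFP-positive peaks per Mb, against 33.3 and 21.6 per Mb over chromosomes 1 to 19. Overlapping peaks, with 1 base in common or more, were merged across the lists into regions, 75 of which touched the windows. A region with peaks of both lists was called common, and this was the case for 30 (40.0%). A further 36 (48.0%, 37.1 to 59.1) held GFP-positive peaks alone and 9 (12.0%) held GFP-negative peaks alone. Over chromosomes 1 to 19 the GFP-positive-specific share was 18.3% and the GFP-negative-specific share was 47.1%. Near Vmn2r genes the GFP-positive-specific share was 34.0% (22.7 to 47.4), and near Olfr genes it was 26.2% (21.3 to 31.8). A GFP-positive-specific share above that of chromosomes 1 to 19 was thus not particular to Vmn1r genes.

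The classes differed in strength, and a common region by definition takes the highest of at least 2 values. The authors' −log10 q of the strongest peak had a median of 10.08 in the 30 common regions, 3.77 in the 9 with GFP-negative peaks alone and 2.65 in the 36 with GFP-positive peaks alone. Over chromosomes 1 to 19 these medians were 10.7, 2.59 and 2.07. A value of at least 10 was reached by 15 of the 30 common regions, by 4 of the 36 GFP-positive-specific ones and by 1 of the 9 others. Over chromosomes 1 to 19 the shares of these classes were 52.7%, 1.75% and 6.87%. The classes thus overlapped, with highest values of 13.9 in GFP-positive-specific and 11.3 in GFP-negative-specific regions, and 51.3 and 55.7, the highest GFP-positive values near any member, belonged to common regions. Where a member had peaks of both lists, the higher −log10 q belonged to the GFP-positive peak for 14 members and to the GFP-negative peak for 16. Since −log10 q depends on the unknown depth of each list, these counts do not compare occupancy.

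**Figure D2:**
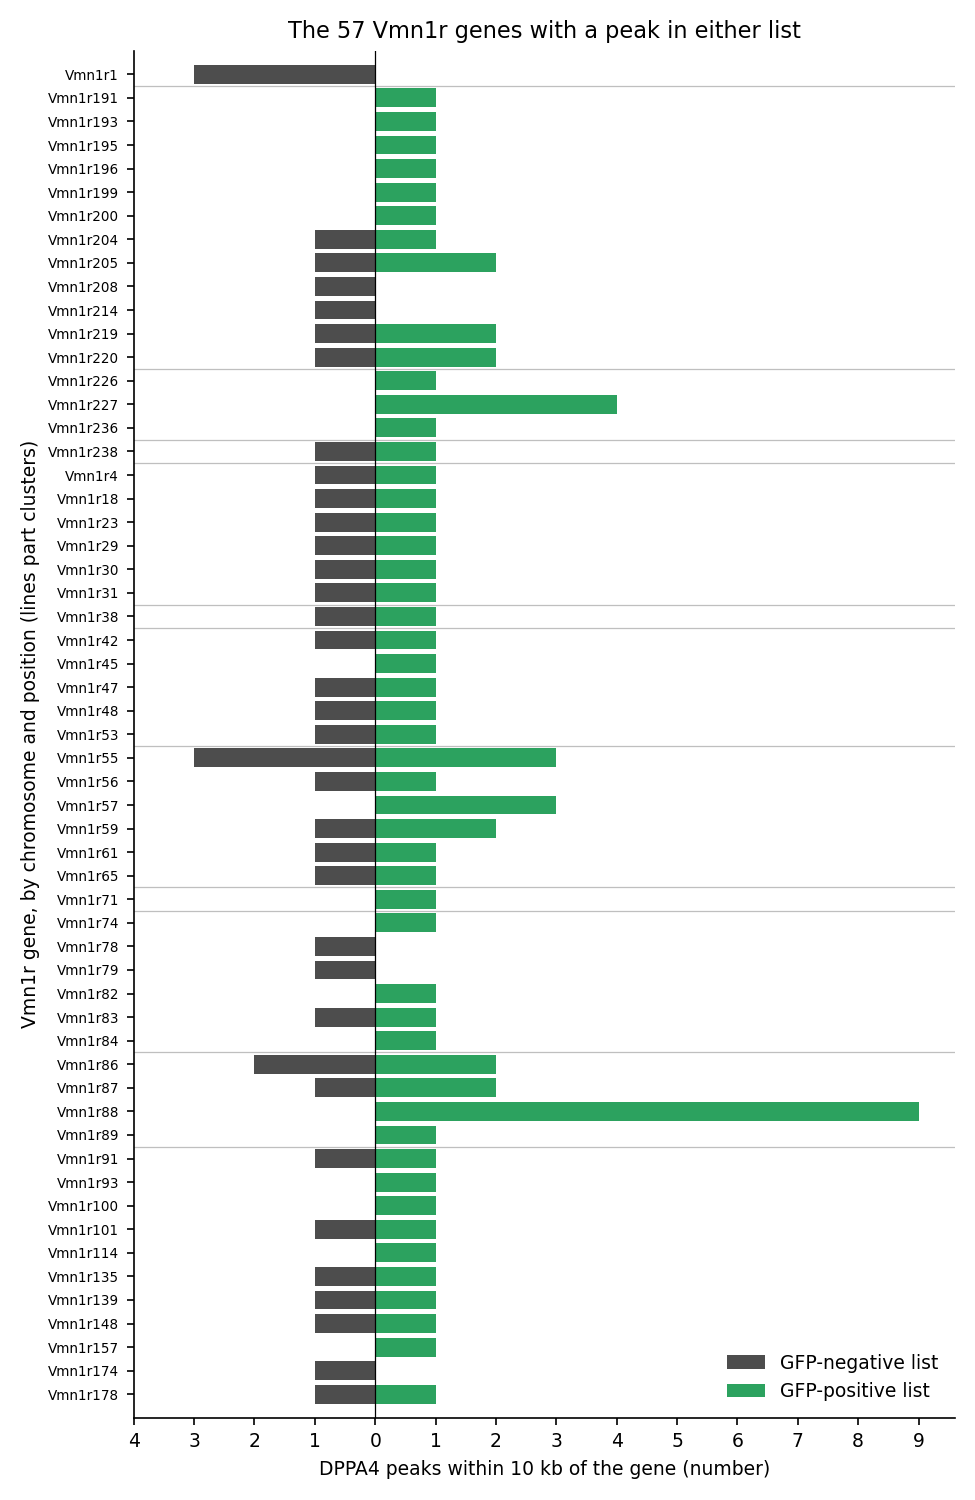
Number of DPPA4 peaks within 10 kb (x axis) of each of the 57 Vmn1r genes with a peak in either list (y axis, by chromosome and position), with GFP-negative peaks drawn to the left and GFP-positive peaks to the right. Vmn1r88 reaches 9 GFP-positive peaks, and no member has more than 3 GFP-negative peaks.

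Within each list, most members with a peak had a single one. In the GFP-negative list 33 members had 1 peak and 3 had more, with a maximum of 3. In the GFP-positive list 41 members had 1 peak and 10 had more, with a maximum of 9. That maximum belonged to Vmn1r88 (ENSMUSG00000117853.1, chr7:13159568-13185864), which had no GFP-negative peak within 10 kb. Its 9 GFP-positive peaks ran over 21.5 kb from chr7:13172711 to chr7:13194193 and covered 67.2% of that stretch. They began inside the gene, where 6 of the summits lay, and ran past its 3′ end. The −log10 q of the 9 peaks ranged from 1.46 to 11.9, and their widths from 235 to 5639 bp. Summits of 3 of them lay in sequence found once in the genome, among them the strongest peak of the row, with a fold enrichment of 8.19 over the local background.

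Shorter rows of GFP-positive peaks lay at 2 other members. Vmn1r227 (chr17:20729843-20739150) had 4 GFP-positive peaks and no GFP-negative peak within 10 kb. They were spread over 9.04 kb upstream of the gene, with −log10 q from 1.93 to 6.56. Vmn1r57 (chr7:5218493-5221736) had 3 GFP-positive peaks and no GFP-negative peak. The first of these was 4385 bp wide with a −log10 q of 13.9, the highest value of any GFP-positive-specific region near a member, and its summit lay in sequence with a median of 631 copies. Vmn1r55, by contrast, had 3 peaks in each list, which paired into 3 common regions. The first of them lay at the start of a neighbouring gene, Rasl2-9, 31 bp from its start site.

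The opposite pattern was seen at Vmn1r1 (ENSMUSG00000091013.3, chr1:182154704-182164486), which stands alone on its chromosome. This member had 3 GFP-negative peaks with −log10 q of 7.34, 11.3 and 1.88, and no GFP-positive peak within 10 kb. All 3 summits lay in single-copy sequence, 2 of them inside the gene and the third 350 bp from its annotated start. The remaining members with GFP-negative peaks alone were Vmn1r208, Vmn1r214, Vmn1r78, Vmn1r79 and Vmn1r174, each with 1 peak and −log10 q between 2.14 and 5.19. Vmn1r78 and Vmn1r79 shared a single peak.

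Members near the 10 kb limit show what the window does to these classes. The GFP-positive peak of Vmn1r82 (−log10 q 26.1) reached into its window, whereas the GFP-negative peak of the same region (−log10 q 41.2) ended outside it, so the gene counted as GFP-positive only although the region was common. The outermost region of Vmn1r227 was common for the same reason, with a GFP-negative −log10 q of 3.55. For Vmn1r83 and Vmn1r238 the reverse held. Each had 1 peak of each list, but in separate regions.

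Start sites of Vmn1r genes were rarely occupied. A peak from 2.5 kb upstream to 0.5 kb downstream of an annotated start was found for 4 members in the GFP-negative list (background 71.9% of all protein-coding genes) and for 6 in the GFP-positive list (background 63.7%), 7 members in all. These were Vmn1r1, Vmn1r4, Vmn1r48, Vmn1r88, Vmn1r135, Vmn1r196 and Vmn1r200, and Vmn1r4, Vmn1r48 and Vmn1r135 had such a peak in both lists. Of the 66 GFP-positive peaks near members, 58 had a summit in no promoter of any annotated gene, as did 30 of the 37 GFP-negative peaks. No share over all peaks of the lists stands beside these counts, so they are a description and no trait of these genes.

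The strongest of these promoter peaks in single-copy sequence was at Vmn1r4 (ENSMUSG00000071893.7, chr6:56924015-56958100). Its −log10 q was 30.2 in GFP-negative and 24.3 in GFP-positive cells, with fold enrichments of 14.7 and 12.4. The start site it covered was shared. The summit lay 45 bp from the start of Vmn1r4 and 135 bp from that of Nt5c3 (chr6:56882400-56923932), a gene on the opposite strand that encodes a pyrimidine nucleotidase, so occupancy cannot be assigned to either gene. These distances are for the stronger, GFP-negative summit, and the GFP-positive summit lay 9 bp from the start of Vmn1r4. Both are printed from the mm10 plus strand with 50 bases on each side of the summit and CG dinucleotides in capitals, together with the strongest peaks of Vmn1r42, Vmn1r88 and Vmn1r1.
Vmn1r4 GFP-negative summit, chr6:56924017-56924117: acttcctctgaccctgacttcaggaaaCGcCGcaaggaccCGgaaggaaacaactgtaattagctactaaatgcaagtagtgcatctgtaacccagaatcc
Vmn1r4 GFP-positive summit, chr6:56923981-56924081: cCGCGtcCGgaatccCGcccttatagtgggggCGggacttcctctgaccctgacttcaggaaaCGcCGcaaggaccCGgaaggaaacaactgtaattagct
Vmn1r42 GFP-positive summit, chr6:89835790-89835890: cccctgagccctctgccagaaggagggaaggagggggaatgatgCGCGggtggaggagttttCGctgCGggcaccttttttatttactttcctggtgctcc
Vmn1r88 GFP-positive summit, chr7:13184602-13184702: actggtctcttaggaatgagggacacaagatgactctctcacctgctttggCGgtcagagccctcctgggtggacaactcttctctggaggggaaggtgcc
Vmn1r1 GFP-negative summit, chr1:182163204-182163304: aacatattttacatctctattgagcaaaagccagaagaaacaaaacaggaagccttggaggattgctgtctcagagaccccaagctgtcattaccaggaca
These windows of 101 bases held 3 CG at the GFP-negative and 8 at the GFP-positive summit of Vmn1r4, 4 at Vmn1r42, 1 at Vmn1r88 and 0 at Vmn1r1. Vmn1r42 had the widest gap in −log10 q between the lists among common regions with single-copy summits, a value that depends on the unknown depth of each list. Its −log10 q was 23.0 in the GFP-positive list and 2.14 in the GFP-negative list, with fold enrichments of 12.2 and 3.79.

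The members fell into 15 clusters when neighbours up to 500 kb apart were joined, and 10 clusters held at least 5 members and 201 members in all. GFP-positive peaks outnumbered GFP-negative peaks in 9 of these 10, counted from 10 kb before the first to 10 kb after the last member. The numbers were equal in the remaining one, Vmn1r40 to Vmn1r54 on chromosome 6, with 5 peaks each. Some margins were narrow, with 16 against 15 peaks at Vmn1r4 to Vmn1r31 and 3 against 2 at Vmn1r32 to Vmn1r39. Counted with 50 kb on both sides, GFP-positive peaks were more numerous in 7 of 10 clusters. The density of GFP-negative peaks was below that of chromosomes 1 to 19 in 10 of 10 clusters and ranged from 5.04 to 15.5 per Mb. The density of GFP-positive peaks was below it in 8 of 10.

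**Figure D3:**
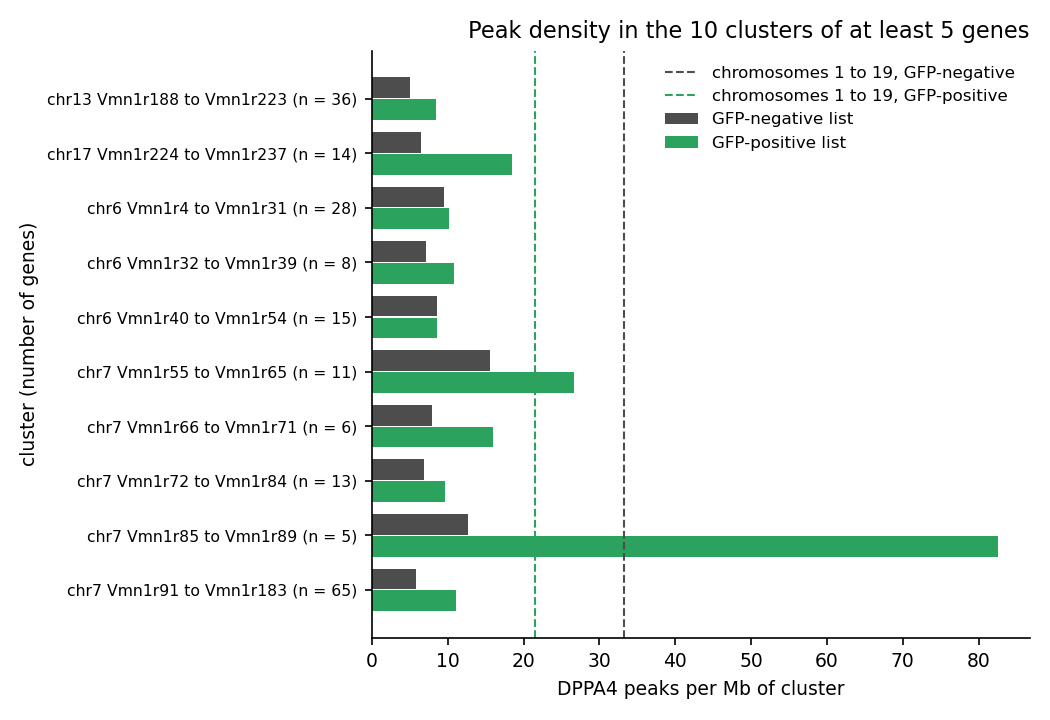
DPPA4 peaks per Mb (x axis) in the 10 clusters of at least 5 Vmn1r genes (y axis, with the number of genes), for the GFP-negative list (grey bars) and the GFP-positive list (green bars). Dashed lines give the density over chromosomes 1 to 19, 33.3 and 21.6 per Mb, and the cluster Vmn1r85 to Vmn1r89 reaches 82.6 GFP-positive peaks per Mb.

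Both exceptions were on chromosome 7. The 5 members from Vmn1r85 to Vmn1r89 (chr7:13083313-13220657) lay among 2 GFP-negative and 13 GFP-positive peaks, or 12.7 and 82.6 per Mb, and 11 of the 13 regions were GFP-positive-specific. Of these 13 peaks, 9 were those of Vmn1r88. Vmn1r86 and Vmn1r87 shared a common region with −log10 q of 13.5 and 10.7 in the GFP-negative and GFP-positive list, and Vmn1r87 had a GFP-positive-specific one of 11.3. Without this cluster the GFP-positive share of peaks near members was 60.2% and the GFP-positive-specific share of regions 40.3%. The 11 members from Vmn1r55 to Vmn1r65 (chr7:5129291-6011010) lay among 14 GFP-negative and 24 GFP-positive peaks, or 15.5 and 26.6 per Mb. Here 13 of 25 regions were common, and 6 of 11 members had a peak within 10 kb, 5 of them in both lists.

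The largest array, 65 members from Vmn1r91 to Vmn1r183 (chr7:20099680-24063554), lay among 23 GFP-negative and 44 GFP-positive peaks over 3.98 Mb. This amounts to 5.77 and 11 per Mb, and 27 of 50 regions were GFP-positive-specific. Peaks within 10 kb reached 7 and 10 of its 65 members, the strongest being the common region of Vmn1r101 with −log10 q of 33.7 and 17.8. Only 12.4% of positions in this array, taken every 500 bp, began a sequence of 31 bases that occurs once in the genome, against 84.2% over chromosomes 1 to 19. Reads from such sequence were placed by the authors at a single best or random match, so a peak here cannot be assigned to 1 copy, and reads spread over copies give each copy fewer. The other clusters of at least 5 members ranged from 49.8% to 80.3% on this measure. With the largest array left out, 29 and 41 of 143 members had a GFP-negative and a GFP-positive peak, and the GFP-positive share of peaks was 65.1%.

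Arrays on other chromosomes differed in the classes of their regions. On chromosome 6, the 28 members from Vmn1r4 to Vmn1r31 (chr6:56924015-58475330) lay among 15 GFP-negative and 16 GFP-positive peaks, of which 13 of 18 regions were common. All 6 members with a peak had peaks of both lists. On chromosome 13, the 36 members from Vmn1r188 to Vmn1r223 (chr13:22084440-23253906) lay among 6 and 10 peaks, with 4 common and 6 GFP-positive-specific regions out of 12. On chromosome 17, the 14 members from Vmn1r224 to Vmn1r237 (chr17:20414146-21314912) lay among 6 and 17 peaks, 13 of 19 regions were GFP-positive-specific, and the 3 members with a peak within 10 kb had GFP-positive peaks alone. The small numbers leave wide intervals. The GFP-positive-specific share was 16.7% (5.84 to 39.2) in the first of these clusters and 68.4% (46.0 to 84.6) in the last.

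The Zscan4 genes, markers of the 2-cell-like state, interrupt the Vmn1r genes of chromosome 7. The block from Zscan4a to Zscan4f (chr7:10794242-11402318) lay between Vmn1r66 to Vmn1r71, which end 39.9 kb before it, and Vmn1r72 to Vmn1r84, which begin 262.2 kb after it. Within 10 kb of each of the 6 Zscan4 genes there were 3 to 7 GFP-positive peaks and 0 GFP-negative peaks, and the block as a whole held 79 GFP-positive and 6 GFP-negative peaks. The Vmn1r genes on both sides did not share this density. Of the 9 members within 500 kb of the block, 2 had a GFP-positive peak within 10 kb and 0 had a GFP-negative one. The first was Vmn1r71, the closest member, with a −log10 q of 1.93, and the second was Vmn1r74, with 5.19. Both values lay within the range of the GFP-positive peaks in the block, whose −log10 q ran from 1.39 to 27.6. Vmn1r67, Vmn1r68, Vmn1r69, Vmn1r70, Vmn1r72, Vmn1r73 and Vmn1r75 had peaks of neither list.

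**Figure D4:**
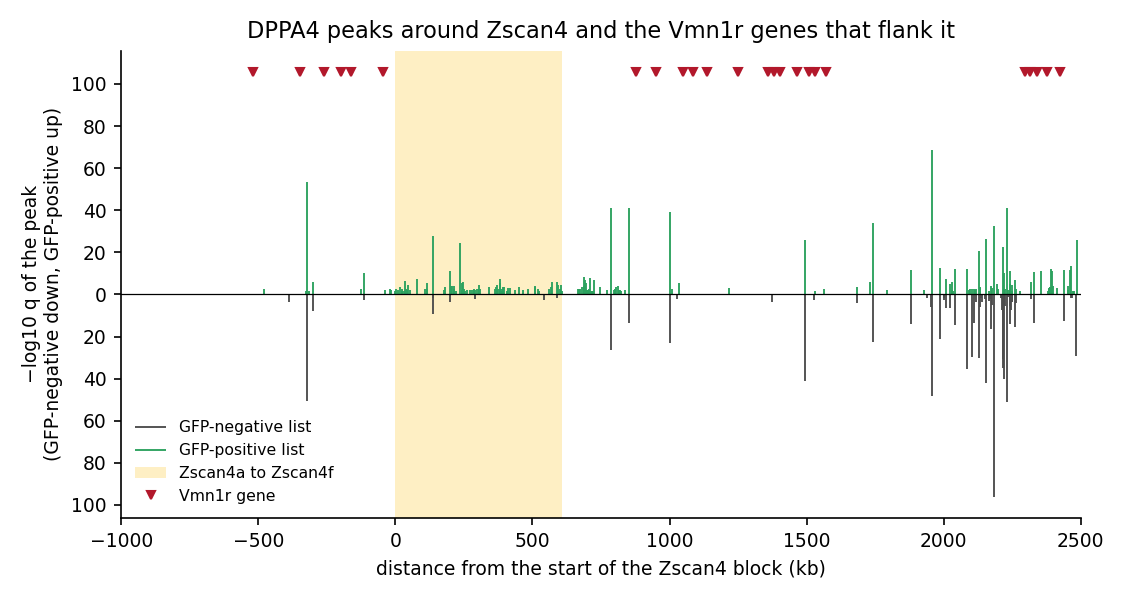
DPPA4 peaks of the GFP-positive list (upward lines) and the GFP-negative list (downward lines) by distance in kb from the start of the Zscan4 block (x axis) and authors' −log10 q (y axis), with the block shaded and Vmn1r genes as triangles. The block holds 79 GFP-positive and 6 GFP-negative peaks, and of the 9 triangles within 500 kb of it 2 mark genes with a peak within 10 kb. The last 5 triangles, Vmn1r85 to Vmn1r89, stand in a stretch of 82.6 GFP-positive peaks per Mb.

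The share of members with a GFP-positive peak near Zscan4, 2 of 9 (22.2%), was close to the 23 of 94 (24.5%) of the other members on chromosome 7 and the 26 of 105 (24.8%) on other chromosomes. For GFP-negative peaks these counts were 0 of 9, 17 of 94 (18.1%) and 19 of 105 (18.1%). The Wilson intervals for the 9 members near Zscan4 ran from 6.32% to 54.7% for GFP-positive and from 0% to 29.9% for GFP-negative peaks. These cover counting error only, since neighbouring genes in 1 pooled list are not replicates. A difference from the other members was not tested. In bins of 250 kb, the stretch directly after the block held 30 GFP-positive and 2 GFP-negative peaks but no member, and the next held 3 and 2 peaks and 4 members. Directly before the block, 5 GFP-positive and 1 GFP-negative peaks shared the bin with 4 members. Strong peaks did occur among these flanking genes, but beyond 10 kb of any member, such as one at −322.6 kb from the start of the block with a GFP-negative −log10 q of 50.6 and a GFP-positive one of 53.6. Windows of 50 kb around the 9 members reached a GFP-positive peak for 8 of them and a GFP-negative peak for 6. At that distance the shares were 70.2% and 63.5% of all members, and 91.4% and 92.9% of all protein-coding genes.

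Most peaks near Vmn1r genes had a summit in multi-copy sequence. A summit was called multi-copy when the median count in the genome of the 31-base sequences within 100 bp of it was at least 2. This held for 29 of 37 GFP-negative peaks (78.4%, 62.8 to 88.6) and 47 of 66 GFP-positive peaks (71.2%, 59.4 to 80.7) near members, against 12.1% and 25.6% of all peaks of the lists. Multi-copy sequence was also more frequent around the members themselves, since 53.0% of positions in their windows began a single-copy sequence, against 88.1% in those of all protein-coding genes. This was not particular to Vmn1r genes, as the share was 53.8% for Vmn2r genes and 75.2% for Olfr genes. The median copy number near members was 8 for GFP-negative and 9 for GFP-positive summits, and at least 100 copies were found for 15 of 37 (40.5%) and 20 of 66 (30.3%). Soft-masked bases, which mark repeats in the reference, made up at least 90% of the 200 bp at the summit in 59.5% of GFP-negative and 62.1% of GFP-positive peaks near members, against 8.96% and 19.8% overall. Repeat classes were not assigned. Peak strength was similar to that of all peaks, with a median −log10 q near members of 4.29 (GFP-negative) and 4.0 (GFP-positive), against 3.71 and 3.44 over all peaks.

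**Figure D5:**
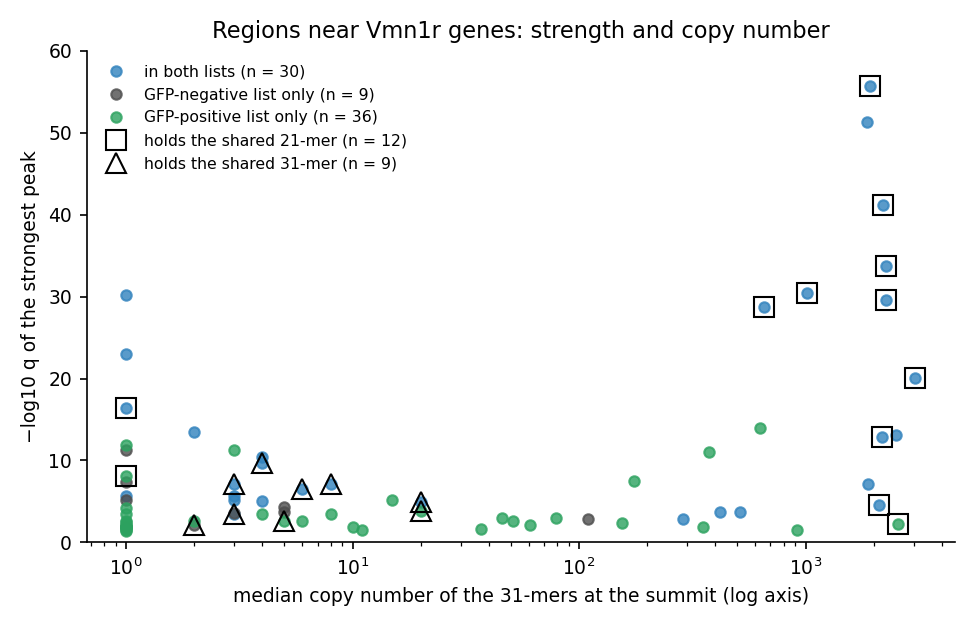
Each of the 75 regions near Vmn1r genes by the median copy number of 31-base sequences at the summit of its strongest peak (x axis, log scale) and the −log10 q of that peak (y axis), coloured by class. Squares mark the 12 regions with a shared sequence of 21 bases, and triangles the 9 regions with a shared sequence of 31 bases. The squares include 7 of the 10 regions whose −log10 q reached 20 and 9 of the 20 that reached 10.

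A sequence recurred among the strongest regions near members. Among the 10 regions whose −log10 q reached 20, 7 held the same 21 bases, and among the 20 that reached 10, 9 did. In all, 12 of the 75 regions held them, and 10 of the 12 were common. The sequence was chosen because it recurred in these regions, so its presence in them is a description. The regions lay on chromosomes 6, 7, 13 and 17, in different arrays, and none of their summits lay in a Vmn1r gene. They are shown with 20 bases on each side to compare the copies next to genes from separate clusters, 5′ to 3′ on the strand named, with the shared 21 bases in capitals.
Vmn1r30, chr6:58430409-58430469, minus strand: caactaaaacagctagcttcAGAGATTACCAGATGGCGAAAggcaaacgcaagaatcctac
Vmn1r38, chr6:66766054-66766114, plus strand: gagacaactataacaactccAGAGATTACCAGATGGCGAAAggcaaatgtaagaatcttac
Vmn1r59, chr7:5442246-5442306, plus strand: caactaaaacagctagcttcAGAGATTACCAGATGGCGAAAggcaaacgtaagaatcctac
Vmn1r82, chr7:12288857-12288917, minus strand: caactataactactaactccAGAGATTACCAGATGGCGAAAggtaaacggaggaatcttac
Vmn1r101, chr7:20449027-20449087, plus strand: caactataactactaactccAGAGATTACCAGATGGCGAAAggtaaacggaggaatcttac
Vmn1r204, chr13:22548797-22548857, minus strand: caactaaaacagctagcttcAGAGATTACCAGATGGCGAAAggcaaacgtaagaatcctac
Vmn1r236, chr17:21299161-21299221, plus strand: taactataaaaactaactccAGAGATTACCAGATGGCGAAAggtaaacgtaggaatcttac
The region of Vmn1r30 (chr6:58430171-58431782) was the strongest near any member, with −log10 q of 42.3 and 55.7 in the GFP-negative and GFP-positive list and fold enrichments of 15.8 and 19.5. Those of Vmn1r59 reached 21.1 and 30.4, those of Vmn1r204 reached 11.1 and 28.7, and those of Vmn1r38 reached 20.05 and 17.03. Vmn1r236 had a GFP-positive peak alone, of 8.09.

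The 21 bases also occurred widely outside these arrays. On both strands of chromosomes 1 to 19 they occurred 7747 times, of which 9.42% overlapped a GFP-negative peak and 28.1% a GFP-positive peak. Inside the spans of the Vmn1r clusters they occurred 83 times, and 12.0% and 26.5% overlapped such peaks. The sequence was chosen because it recurred in regions near members, so the shares inside the clusters and those below describe the choice. They are no comparison with copies elsewhere or between families. The regions holding them made up 16.0% of those near Vmn1r genes, 11.3% near Vmn2r genes, 12.0% near Olfr genes and 2.21% of all 97623 regions.

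A second sequence, of 31 bases, recurred in 9 weaker regions, 6 of them common. Of the 9, 7 lay in the array from Vmn1r91 to Vmn1r183. Their −log10 q values ran from 2.14 to 9.74 for GFP-negative and from 2.66 to 7.09 for GFP-positive peaks. This sequence too was chosen because it recurred near Vmn1r genes, and part of that array is duplicated, so the shares below describe the choice and are no comparison between families. Copies are printed for members of 3 chromosomes, with the shared 31 bases in capitals.
Vmn1r205, chr13:22583298-22583368, plus strand: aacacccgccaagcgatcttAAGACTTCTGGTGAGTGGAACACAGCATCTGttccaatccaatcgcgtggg
Vmn1r227, chr17:20719195-20719265, minus strand: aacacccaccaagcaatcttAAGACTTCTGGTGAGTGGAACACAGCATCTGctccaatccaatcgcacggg
Vmn1r91, chr7:20111937-20112007, minus strand: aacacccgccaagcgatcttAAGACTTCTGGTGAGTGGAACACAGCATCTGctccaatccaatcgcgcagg
Vmn1r139, chr7:22107603-22107673, minus strand: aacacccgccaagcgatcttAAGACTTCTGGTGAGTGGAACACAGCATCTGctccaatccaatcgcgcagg
The copies beside Vmn1r91 and Vmn1r139 are identical over the 71 bases shown. This sequence occurred 189 times on chromosomes 1 to 19, 25 times of which in the spans of the Vmn1r clusters. Outside these spans 71.3% of copies overlapped a GFP-negative peak and 65.2% a GFP-positive peak, and inside them 40.0% and 48.0%. Of the regions near Vmn1r genes 12.0% held it, of those near Vmn2r genes 0 of 53, of those near Olfr genes 1.12% and of all regions 0.129%. No region near a member held both sequences.

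Most genes that work with the receptors had peaks of both lists, as most genes did. Of a list of 31 vomeronasal genes, the 19 that encode signalling proteins and regulators of sensory neurons had peaks of both lists within 10 kb in 19 cases. Gnai2, which encodes the G protein subunit of Vmn1r neurons, had 13 GFP-negative and 7 GFP-positive peaks, and the channel gene Trpc2 had 9 and 7. Bcl11b, which encodes a transcription factor of these neurons, had 25 and 7. The 12 remaining genes, formyl peptide receptors and H2-M genes that are themselves clustered, had no GFP-negative peak, and 3 of them, H2-M10.1, H2-M10.2 and H2-M10.4, had GFP-positive peaks. The background for peaks of both lists was 75.9%. The 19 of 19 fell to 12 when peaks needed a −log10 q of at least 5 (59.1% of all genes) and to 7 with the 10000 strongest peaks of each list (34.5%). Gene length differed as well, with a median of 30.5 kb for these 19 genes, up to 391 kb, against 6.80 kb for Vmn1r genes and 17.6 kb for all genes, and its part in the counts was not tested.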

How the data were processed

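CUT&RUN for DPPA4 gave 4 libraries, deposited as 2 peak lists that each pool 2 replicates. Per the methods and labels, the authors trimmed reads with bbduk, aligned them to mm10 with STAR 2.7.10 placing multimapping reads at 1 best or random position, removed duplicates with Picard 2.26.0, dropped ENCODE high-signal regions, used SAMtools 1.14 and bedtools 2.30.0, and called peaks with MACS2 2.2.6. Whether IgG served as the control was not stated. The deposited fold enrichment is a ratio to the local background. The deposited −log10 q is the authors' adjusted significance, with a lowest value of 1.30. The deposited score and −log10 p were not used, and 0 per-sample columns were left out.

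Peaks sharing at least 1 bp with a gene extended by 10 kb were counted. Distances, clusters (gap 500 kb) and regions were computed in Python 3.11.15, with copy numbers of 31-base sequences from GRCm38.p6 (RefSeq), which also supplied the printed sequences. Functions were tested on simulated data. Shares carry 95% Wilson intervals. Members and lists were chosen with earlier results of these data known. The genes named were those within 500 kb of Zscan4, the 10 with most GFP-positive and 5 with most GFP-negative peaks, the strongest per list in each cluster of at least 5 members, and those with a promoter peak. Others, such as Vmn1r42, were named after their values were seen.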

Additional observations from a re-analysis of the deposited data

How the results depend on the processing

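No paired analysis was possible because the replicates of a group were pooled into 1 list. Each of 14 results was recomputed under other settings, giving 102 values. Of these, 70 stayed within the interval (or 1.5 times the count) of the reported value, 32 moved and 0 changed direction. A count has no direction, and a share has one only against a reference value, so the 0 is no evidence of stability for such results. One setting cut the GFP-negative list to the size of the GFP-positive list. Differences from all genes for GFP-positive peaks cannot change then, and that of members stayed at −53.8 points. Leaving out the largest cluster or Vmn1r85 to Vmn1r89 was chosen after seeing the data.

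The share of members with a GFP-negative peak minus that of all genes, −65.8 points as reported, was −73.7 at 2.5 kb, −29.4 at 50 kb and −39.4 with the 10000 strongest peaks of each list. For GFP-positive peaks, −53.8 became −64.4, −21.2 and −33.9. For Vmn2r genes, −51.1 became −36.8 at 50 kb and −35.0 with the 10000 strongest, and for Olfr genes −62.1 became −66.4, −31.3, −36.0 and, at a −log10 q of at least 5, −52.8. The GFP-positive share of peaks was 72.7% with the 10000 strongest. Members with GFP-positive peaks alone numbered 9 at 2.5 kb, 35 at 50 kb, 13 at a −log10 q of at least 5 and 9 with the 10000 strongest, and those with GFP-negative peaks alone 2, 21, 2 and 0. Near Zscan4, members with a GFP-positive peak numbered 0 at 2.5 kb, 8 at 50 kb, 1 at a −log10 q of at least 5, 0 with the 10000 strongest, 1 with single-copy summits, 1 of 4 within 250 kb and 5 of 19 within 1 Mb, and those with a GFP-negative peak 6 at 50 kb and 3 within 1 Mb. Vomeronasal genes with peaks of both lists numbered 12 at a −log10 q of at least 5 and 7 with the 10000 strongest. A wider window or fewer peaks changes these counts by construction. Depth, unknown here, and multi-copy sequence limit all counts.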

Other observations

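The annotation also listed 118 Vmn1r genes of other types on chromosomes 1 to 19, mostly pseudogenes, which entered no comparison above. A GFP-negative peak lay within 10 kb of 15 of them (12.7%) and a GFP-positive peak within 10 kb of 22 (18.6%), with 16 and 27 distinct peaks in all.

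The largest array on chromosome 7 contained a long internal repeat. Sequences of 31 bases found at 2 places of the array over 100 kb apart paired a stretch of 622.6 kb (chr7:20110367-20732984) with one about 1989 kb further on (chr7:22099523-22722140), and 48.6% of such pairs had this spacing. The first copy held 9 Vmn1r genes and the second 7. It had 15 GFP-positive and 7 GFP-negative peaks, and the second copy 9 and 5. Of the GFP-positive peaks, 8 of 15 in the first copy and 8 of 9 in the second had a counterpart within 1000 bp of the matching position, as did 4 of 7 and 4 of 5 GFP-negative peaks. Since a read that matches both copies was placed at 1 of them, the placement of reads in the copies is not independent.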
